A study of Homo sapiens with 6 samples.

Results

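The genes described here are 7 caspase genes and *APAF1*, 8 rows out of the 20348 genes in the deposited RNA-seq table. They were taken by gene symbol, from a list chosen with earlier results of these data known. They were measured in MV4-11, an established human acute myeloid leukemia (AML) cell line that carries a KMT2A-AFF1 fusion and a FLT3 internal tandem duplication. The Ctrl group was 3 untreated samples, described in the design as a blank control, and the WNK463 group was 3 samples given 1 μM WNK463, a small-molecule inhibitor of the WNK (with-no-lysine) kinases, for 48 h. The labels do not say whether the Ctrl cells received the solvent of the drug, nor whether the samples of a group came from separate cultures, so the p-values measure only the spread between these samples, which may be technical. The question put to the comparison was which transcripts change when WNK kinases are inhibited in AML cells.

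Caspases are proteases that are made as inactive precursors. Initiator caspases are activated when they are gathered on a platform: caspase-9 on the apoptosome, which APAF1 forms once mitochondria release cytochrome c, caspase-8 and caspase-10 at death receptors through the adaptor FADD, and caspase-2 on the PIDDosome built by PIDD1 and CRADD. Executioner caspases, caspase-6 among them, are cleaved by initiators and cut the substrates that take a cell apart. Inflammatory caspases act beside these: caspase-1 matures interleukin-1β on inflammasomes, and caspase-4 senses bacterial lipopolysaccharide inside the cell, and both can open gasdermin D pores. RNA levels say nothing of how much of each precursor was cleaved, and in bulk samples fewer cells of one state and less RNA per cell cannot be told apart.

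After WNK463, *CASP4* and *CASP2* RNA fell, *CASP9* RNA rose, and the other 5 members did not pass the test. *CASP4* changed by a log2 fold change of -1.07, *CASP2* by -0.48 and *CASP9* by 0.52. By edgeR at an adjusted p below 0.05, 1 of the 8 members was higher and 2 were lower, against 35.5% of the 11973 tested genes called higher and 35.3% called lower, 70.8% in all. With TMM scaling *CASP4* was the only one of the 8 members past a 2-fold change. Of all tested genes 15.2% were past 2-fold, 9.62% higher and 5.55% lower. With total-count scaling *CASP4*, at -0.92, was short of 2-fold. All 8 members passed the filter on low counts, and their median log2 fold change was -0.03 beside 0.02 over all tested genes.

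Library totals ran from 14915745 to 17411780 counts. TMM scaling, which sets libraries against each other by the bulk of their genes, gave factors of 0.944 to 0.951 in Ctrl and 1.05 to 1.06 in WNK463. Scaling by total counts instead moved the median log2 fold change of all genes up by 0.152, so the small changes of the members depend on that choice. The 8 myeloid leukemia markers, among them *SPI1*, *CD33* and *FLT3*, all had more than 100 counts in every sample. Of 8 markers of other cell types, 7 had at most 12 counts in any sample and 4 of those had none, among them *CD3D*, *MS4A1* and *EPCAM*. Levels are given as CPM, counts scaled to one library size with the TMM factors and not corrected for length. The summed level of that list was 91.6 to 105 CPM in Ctrl and 164 to 177 CPM in WNK463, nearly all of it *PECAM1*, which myeloid cells also express. The part of this marker in the results was not tested.

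**Figure D1:**
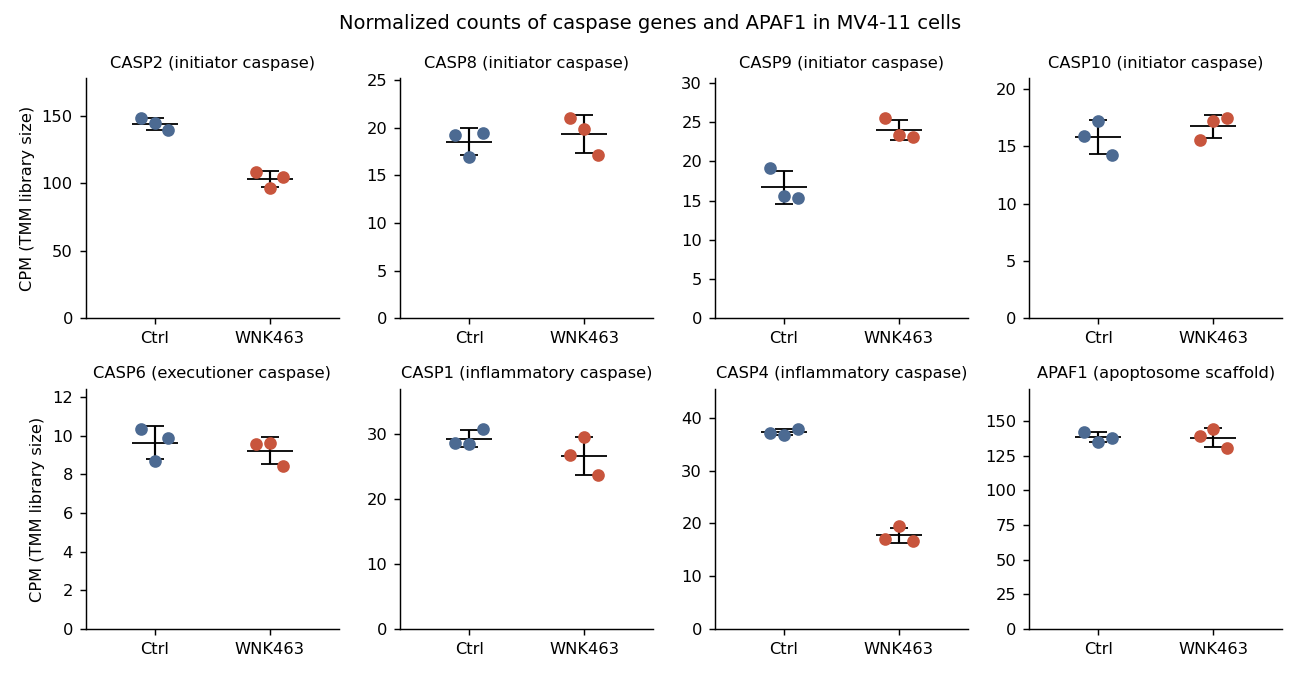
Normalized counts (CPM with TMM library sizes) of the 8 members in each sample. Points are samples, lines are means, bars are SD (n = 3 per group), and each axis starts at 0. The Ctrl and WNK463 points do not overlap for *CASP2*, *CASP9* and *CASP4*, and overlap for the other 5 genes.

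Among the initiator caspases, *CASP2* and *CASP9* moved in opposite directions. *CASP2* (ENSG00000106144, GRCh38 chr7:143288215-143307696, plus strand) stood at 148, 145 and 140 CPM in the Ctrl samples and at 108, 96.7 and 105 CPM in the WNK463 samples. Each WNK463 sample was below each Ctrl sample. The means were 144 ± 4.35 and 103 ± 5.82 CPM (SD, n = 3 each), a decrease with an SE of 0.05 on the log2 scale and an adjusted p of 3.24e-07 by edgeR. In limma on log2(TPM + 1) the decrease was smaller, at -0.28.

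*CASP9* (ENSG00000132906, chr1:15490832-15526534, minus strand) stood at 19.1, 15.6 and 15.4 CPM in Ctrl and at 25.5, 23.4 and 23.1 CPM in WNK463. All 3 treated samples were above the highest control, although the first Ctrl sample lay apart from the other Ctrl samples. The means were 16.7 ± 2.11 and 24.0 ± 1.29 CPM, and the log2 fold change had an SE of 0.10 and an adjusted p of 0.000120. An exact two-sided permutation test of each of *CASP2*, *CASP4* and *CASP9* alone gave p = 0.1, the smallest value that 3 samples against 3 allow. Groups that do not overlap were found for 3 of the 8 members and for 73.5% of all tested genes.

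*CASP2* and *CASP9* are the 2 initiator caspases that were called, and RefSeq (GRCh38.p14) gives for each 2 windows of 250 bases before a transcription start. For 1 window of each gene, the part that lies outside every GENCODE 29 exon is shown 5′ to 3′ along the gene, with matches to common promoter motifs in capitals: the GC box (GGGCGG), bound by SP family factors, and the CCAAT box (CCAAT), each on either strand, overlapping matches included. The *CASP9* stretch is chr1:15524890-15525040, minus strand, and the *CASP2* stretch is chr7:143288101-143288214, plus strand.

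CASP9: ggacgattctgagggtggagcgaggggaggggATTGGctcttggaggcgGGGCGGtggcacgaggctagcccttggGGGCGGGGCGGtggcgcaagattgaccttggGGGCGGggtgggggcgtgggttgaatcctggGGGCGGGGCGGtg

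CASP2: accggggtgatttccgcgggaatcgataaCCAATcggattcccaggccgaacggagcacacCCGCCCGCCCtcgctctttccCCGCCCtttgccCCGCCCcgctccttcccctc

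The 250 bases of this *CASP9* window held 8 GC box matches, 6 of them in the stretch shown, and those of *CASP2* held 4, all in the stretch shown. A GC box match was present in 42.6% and a CCAAT match in 32.0% of the 35116 RefSeq windows. GC content was 71.6% and 71.2%, against a median of 58% over all windows. The other *CASP9* window had 8 GC box matches and 77.6% GC, but its longest run outside exons was 20 bases. The other *CASP2* window (chr7:143289338-143289587), which lies wholly outside exons, had no match to either motif and 44.0% GC, so these features were not shared by all windows. Nor were they limited to called genes. The *CASP6* window had 74.0% GC and 3 GC box matches. That of *APAF1* had 73.6% GC, 1 GC box match and 1 CCAAT match, and neither gene was called. The window of *CASP4*, which was called, had 1 GC box match and a GC content below the median of all windows. The windows of *CASP8*, not called, were also below that median. A link between these features and the calls was not tested. The windows shown were chosen after their matches were seen, and the matches describe the letters, not binding.

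*CASP8* and *CASP10*, the initiators of the death receptor route, lie side by side on chromosome 2, 4036 bases apart, with *CFLAR* 6193 bases from *CASP10*, and neither passed the test. *CASP8* (ENSG00000064012, chr2:201233443-201287711) was at 19.2, 16.9 and 19.4 CPM in Ctrl and at 21.0, 19.8 and 17.1 CPM in WNK463. Its log2 fold change was 0.06 with a 95% interval of -0.15 to 0.27 (adjusted p = 0.597). *CASP10* (ENSG00000003400, chr2:201182881-201229406), a close relative of *CASP8*, was at 15.9, 17.2 and 14.3 CPM in Ctrl and at 15.6, 17.2 and 17.4 CPM in WNK463. Its log2 fold change was 0.09 with an interval of -0.13 to 0.30 (adjusted p = 0.452). In both genes the groups overlapped, and the intervals leave out a change as large as that of *CASP9*. With total-count scaling *CASP10* was called higher, at 0.24 (adjusted p = 0.0440 by edgeR).

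*APAF1* (ENSG00000120868, chr12:98645141-98735433), the scaffold on which caspase-9 is activated, was at 142, 135 and 138 CPM in Ctrl and at 140, 144 and 131 CPM in WNK463. The means were 138 CPM in both groups, and the log2 fold change of -0.00 had an interval of -0.11 to 0.11 (adjusted p = 0.971). This was the narrowest interval among the members, and *APAF1* and *CASP2* had the most counts. With total-count scaling it was called higher, at 0.15 (adjusted p = 0.0161 by edgeR). Under that scaling 3 members were higher and 2 lower, against 46.1% and 26.1% of all tested genes.

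*CASP6* (ENSG00000138794, chr4:109688622-109703583) is the executioner among the members. It was at 10.4, 8.71 and 9.88 CPM in Ctrl and at 9.60, 9.65 and 8.43 CPM in WNK463, with groups that overlapped. Its log2 fold change was -0.07 with an interval of -0.33 to 0.20 (adjusted p = 0.649), the widest interval of the 8 genes, and its counts were the lowest, at most 170 in a sample. In *CASP6*, 105 exon bases (5.40%) also lie in *MCUB* on the other strand, which had at most 25 counts, and without strand the reads of such bases cannot be told apart. In *APAF1*, 750 exon bases (9.48%) also lie in *ANKS1B* on the other strand, which had at most 1 count. In *CASP9*, 106 exon bases (2.01%) also lie in *CELA2B* on the other strand, which had 0 counts.

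Of the inflammatory caspases, *CASP4* fell and *CASP1* did not pass the test. *CASP4* (ENSG00000196954, chr11:104942866-104969436, minus strand) stood at 37.1, 36.8 and 37.9 CPM in Ctrl and at 17.0, 19.4 and 16.7 CPM in WNK463. The groups were far apart for their spread, with means of 37.3 ± 0.564 and 17.7 ± 1.47 CPM. The SE of the log2 fold change was 0.08 and the adjusted p was 1.85e-09 by edgeR.

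*CASP1* (ENSG00000137752, chr11:105025443-105035250, minus strand), which lies 56.0 kb from *CASP4*, was at 28.6, 28.4 and 30.7 CPM in Ctrl and at 26.8, 29.5 and 23.6 CPM in WNK463. The groups overlapped through the second WNK463 sample. The log2 fold change was -0.13 with an interval of -0.32 to 0.05 (adjusted p = 0.176), and without that sample it was -0.22 and passed the test (adjusted p = 0.0469 by edgeR). Of the distinct 75-base words in the *CASP1* transcripts, 102 of 4314 (2.36%) also occur in the neighboring copy *CARD16*, so a small part of the reads could be split between them, while *CASP4* shared none with another gene. In *CASP10*, 31 of 7807 such words (0.397%) also occur in another gene.

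**Figure D2:**
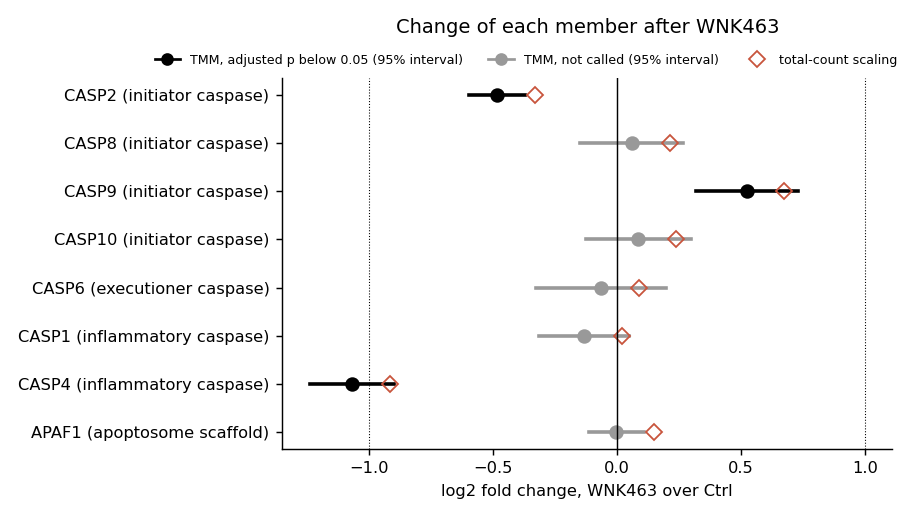
Log2 fold change of each member, WNK463 over Ctrl, from edgeR. Circles are values with TMM scaling and lines their 95% intervals (black for an adjusted p below 0.05, gray otherwise), diamonds are values with total-count scaling, and dotted lines mark a 2-fold change. *CASP4* lies at -1.07, *CASP2* at -0.48 and *CASP9* at 0.52, and every diamond lies to the right of its circle.

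Ratios of 2 genes within a library do not depend on the scaling of libraries. The *CASP4* to *CASP1* count ratio was 1.30, 1.29 and 1.23 in Ctrl and 0.637, 0.657 and 0.708 in WNK463. The *CASP9* to *CASP2* ratio was 0.116 ± 0.0118 in Ctrl and 0.233 ± 0.0109 in WNK463, and the *CASP9* to *APAF1* ratio 0.120 ± 0.0122 and 0.174 ± 0.0104 (SD, n = 3 each, exact permutation p = 0.1 for each). These groups did not overlap. A ratio of a called gene to a gene not called, or of genes called in opposite directions, largely restates those calls. It is therefore no further support for them, and no share over other gene pairs was computed. The *CASP8* to *CASP10* ratio was 1.18 ± 0.191 in Ctrl and 1.16 ± 0.182 in WNK463 (exact permutation p = 0.8), and *CASP2* to *PIDD1* was 4.91 ± 0.328 and 5.49 ± 0.693 (exact permutation p = 0.2). Over the 7 ratios computed, the smallest Benjamini-Hochberg adjusted value of these exact tests was 0.14, so none could pass in this design.

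**Figure D3:**
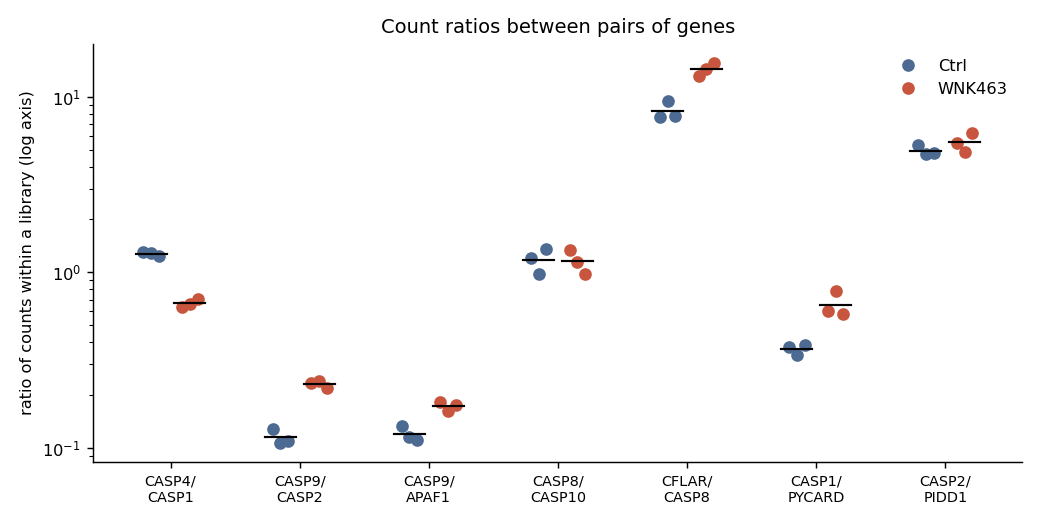
Count ratios of 7 gene pairs within each library, on a log axis. Points are samples and lines are group means (n = 3 per group). The ratio of *CASP4* to *CASP1* lies above 1 in every Ctrl sample and below 1 in every WNK463 sample, whereas the points of *CASP8* to *CASP10* and of *CASP2* to *PIDD1* overlap.

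Levels between genes were compared in the deposited TPM values, a transcript abundance corrected for length, whose sum is the same in every sample, so that between groups they shift as total-count scaling does. In Ctrl the order by mean TPM was *CASP2* (65.6 ± 1.66), *CASP4* (54.4 ± 1.97), *APAF1* (39.5 ± 1.42), *CASP1* (35.5 ± 2.08), *CASP9* (18.2 ± 2.74), *CASP8* (15.3 ± 0.927), *CASP6* (11.3 ± 0.607) and *CASP10* (8.26 ± 0.675). Only *CASP9* and *CASP8* overlapped among neighbors in that order. In WNK463 *CASP2* was still first at 53.9 ± 2.22 TPM, and *CASP4*, at 29.4 ± 2.38 TPM, stood beside *CASP9* at 29.4 ± 0.758 TPM, with ranges that overlapped. *APAF1* (43.0 ± 1.90 TPM) and *CASP1* (37.2 ± 4.43 TPM) overlapped as well.

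The summed TPM of the 7 caspases was 209 ± 3.23 in Ctrl and 189 ± 6.08 in WNK463. *CASP4* made up 26.1% ± 0.842 of that sum in Ctrl and 15.5% ± 0.920 in WNK463, and *CASP9* 8.71% ± 1.23 and 15.6% ± 0.891 (SD, n = 3 each). The inflammatory share was 43.1% ± 1.73 and 35.2% ± 2.61, and the initiator share 51.5% ± 1.59 and 58.4% ± 2.96. None of these shares overlapped between groups. Shares of the same sum are tied, so a fall in that of *CASP4* raises the others. The genes of a class did not all move with its share. That of *CASP1* was 17.0% in Ctrl and 19.6% in WNK463, with groups that overlapped, and that of *CASP2* was 31.4% and 28.6%. In TPM the groups did not overlap for 5 of the 8 members (*CASP2*, *CASP4*, *CASP8*, *CASP9* and *APAF1*), against 70.5% of all tested genes.

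**Figure D4:**
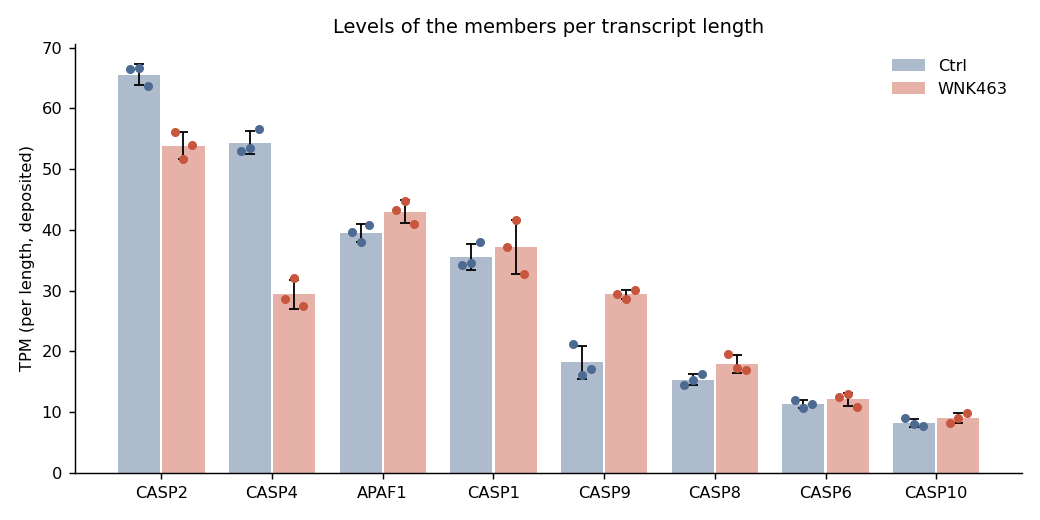
Deposited TPM of each member, ordered by the Ctrl mean. Bars are group means from 0, error bars are SD and points are samples (n = 3 per group). *CASP4* fell from the second place to the level of *CASP9*, at 29.4 TPM each.

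The genes that act with the members were read from 6 lists set by known role, with earlier results of these data known. Of their 65 genes in the table, 55 could be tested, and 22 were higher, 18 lower and 15 not called, with 6 higher and none lower past 2-fold. The background is again 35.5% higher and 35.3% lower over all tested genes, and past 2-fold 9.62% higher and 5.55% lower.

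Around the apoptosome, RNA levels of the genes acting beside *APAF1* and *CASP9* moved in both directions, as they did over all tested genes. Of 9 tested cofactors and inhibitors, 3 were higher, 2 lower and 4 not called, against 35.5% higher and 35.3% lower of all tested genes. *CYCS*, which encodes cytochrome c, fell from 259 to 168 CPM (log2 fold change -0.62, adjusted p = 5.51e-09). *XIAP*, an inhibitor of caspase-9, was higher by 0.30 (adjusted p = 0.000775 by edgeR), and by 0.53 in limma on log2(TPM + 1). In that limma fit the call was lost without the filter on low values (adjusted p = 0.0538). The TPM of *XIAP* in WNK463 was 13.1, 23.4 and 16.2, so the larger TPM estimate leans on the second sample. *BIRC3*, a ubiquitin ligase of the same inhibitor family, rose by 3.71 from 5 or 6 counts in each Ctrl sample to 72 to 76 counts in WNK463 (adjusted p = 6.89e-09). At such low Ctrl values the pseudocount matters, and limma gave 1.37 on log2(TPM + 1) and 2.96 on log2(TPM + 0.1).

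Of the 14 tested BCL2 family genes, which set mitochondrial release upstream of *APAF1*, 6 were higher, 5 lower and 3 not called. The 2 past 2-fold both encode pro-apoptotic BH3-only proteins. *BMF* stood at 72.3, 72.2 and 69.5 CPM in Ctrl and at 242, 228 and 239 CPM in WNK463 (log2 fold change 1.73, adjusted p = 1.37e-14). *BCL2L11*, which encodes BIM, rose from 73.8 to 160 CPM (1.12, adjusted p = 3.01e-12). *BID*, the BH3-only protein that caspase-8 cleaves, fell from 111 to 74.3 CPM (-0.58, adjusted p = 3.90e-08).

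At the death receptor and PIDDosome platforms, 3 of 10 genes were higher, 3 lower and 4 not called. *CFLAR*, the catalytically inactive relative of caspase-8 that restrains it, rose from 152 to 274 CPM (0.85, adjusted p = 5.52e-11), and by 0.53 in limma on log2(TPM + 1). Its count ratio to *CASP8* was 7.67, 9.44 and 7.73 in Ctrl and 13.1, 14.3 and 15.5 in WNK463. Counts are not corrected for length, and the length assigned to *CFLAR* was 39.4% greater in WNK463, as described under other observations. In TPM the gap was smaller: mean *CFLAR* was 66.3 in Ctrl and 96.1 in WNK463, and mean *CASP8* was 15.3 and 17.9. The adaptor *FADD* was lower by a log2 fold change of -0.28 (adjusted p = 0.00394), a call that was made in 10 of 14 alternative analyses. Of the PIDDosome genes, *PIDD1* fell from 29.4 to 18.9 CPM (-0.63, adjusted p = 4.43e-06), the same direction as *CASP2*, and *CRADD* was at 5.64 and 6.62 CPM (0.23, adjusted p = 0.202). *CRADD* was called higher with total-count scaling (0.38, adjusted p = 0.0394 by edgeR) and in the limma fits on TPM (0.40 to 0.43).

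Of the 12 tested inflammasome genes, 7 were higher, 2 lower and 3 not called. *PYCARD*, the adaptor that joins sensors to caspase-1, fell from 79.8 to 40.9 CPM (-0.96, adjusted p = 7.65e-10), and the *CASP1* to *PYCARD* count ratio was 0.367 ± 0.0254 in Ctrl and 0.655 ± 0.111 in WNK463 (exact permutation p = 0.1). *IL1B*, whose product is a caspase-1 substrate, rose from 5.73 to 34.7 CPM (2.60, adjusted p = 1.85e-13), and the sensors *NLRC4* and *NAIP* rose by 1.55 and 1.22 (adjusted p = 3.68e-09 and 6.00e-12). *NAIP* has near-identical copies in the genome, so its counts are uncertain. *CARD16* was at 1.58 and 1.46 CPM and was not called (adjusted p = 0.751).

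Of 8 tested executioner substrates and nucleases, 5 were lower, 2 higher and 1 not called. *DFFA*, the caspase-cleaved inhibitor of the apoptotic nuclease, fell from 62.2 to 37.2 CPM (-0.74, adjusted p = 8.60e-09), and *LMNB1*, a nuclear lamina gene, from 429 to 222 CPM (-0.95, adjusted p = 3.74e-12). *CASP5*, *CASP12* and *CASP14* had at most 1 count in any sample and were not tested.

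**Figure D5:**
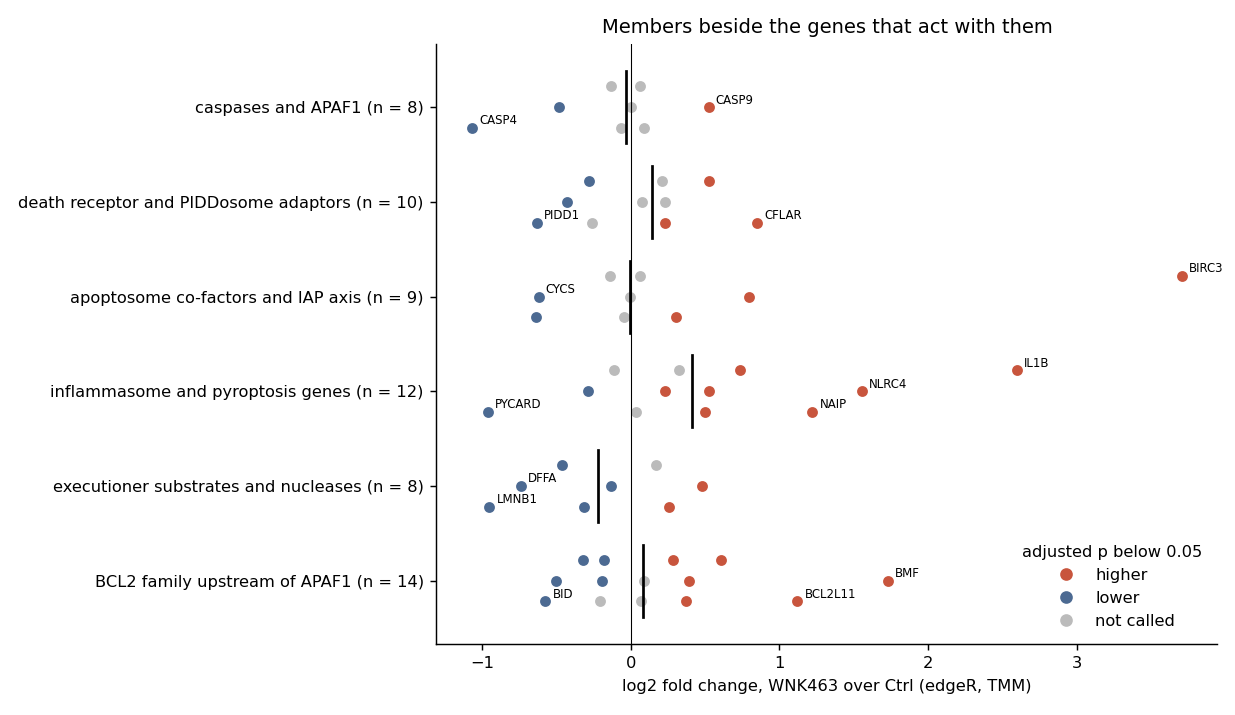
Log2 fold change, WNK463 over Ctrl, of the members and of each tested gene in 5 of the 6 lists. Points are genes (red higher, blue lower, gray not called by edgeR), black bars are list medians, and the names mark genes given in the text with an absolute value of at least 0.5. *BIRC3* (3.71), *IL1B* (2.60) and *BMF* (1.73) lie farthest to the right.

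The 3 tested genes whose log2 CPM was most like that of *CASP4* over the 6 samples were *ZNF207*, *RANBP1* and *TRIP13*, with Pearson r of 0.9998, 0.9995 and 0.9994. These points fall into 2 groups of 3, so r mainly reflects the group difference.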

How the data were processed

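Poly(A) RNA of 6 MV4-11 samples was sequenced on an Illumina instrument. The authors deposited estimated counts per gene (rounded to whole numbers) and TPM values. Per the labels, the submitters' processing notes name fastp, Bowtie2, HISAT2, StringTie, RSEM, DESeq2 and edgeR, without roles or versions, and the build GRCh38; strandedness is not given in the sources used here. Deposited columns with the authors' group means, log2 fold change, p-value and FDR were not used.

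Counts were tested with edgeR 4.0.16 (TMM, filterByExpr, quasi-likelihood test, Benjamini-Hochberg adjustment over 11973 genes, called at adjusted p below 0.05) in R 4.3.3. The procedure was run on simulated data with 200 changed genes among 11968 tested: 199 were recovered with 4 false calls. In the measured data 70.8% of tested genes were called, and recovery with so large a share of changed genes was not tested. Alternatives were DESeq2 1.42.0, limma 3.58.1 on log2(TPM + 1) and log2(TPM + 0.1), total-count scaling, 2 filters, a replicate block and leaving out each sample. The members and lists were chosen with earlier results of these data known. Genes named were the 8 members, list genes past 2-fold or with the 2 smallest p of their list, and 10 direct partners or copies. Some list and marker genes are counted but not reported singly here. Locations are from GENCODE 29. Replicates differed by more than sampling noise.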

Additional observations from a re-analysis of the deposited data

How the results depend on the processing

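*CASP2*, *CASP4* and *CASP9* kept their direction and their call at an adjusted p below 0.05 in all 14 alternatives. Their log2 fold changes were -0.52 to -0.28, -1.14 to -0.87 and 0.45 to 0.70. *CASP4* was short of 2-fold with total-count scaling (-0.92) and in the limma fits on TPM (-0.87 to -0.89). With total-count scaling 3 members were called higher (*CASP9*, *CASP10* and *APAF1*), and the share of called genes that were higher went from 50.2% to 63.9%. In TPM, 5 members had groups that did not overlap. *CASP1* changed sign with total-count scaling (0.019) and in limma on TPM (0.058 with a pseudocount of 1, 0.059 with 0.1 and 0.058 without the filter), *CASP6* likewise (0.087, and 0.089, 0.096 and 0.089), *CARD16* likewise (0.038, and 0.070, 0.079 and 0.070), and *APAF1* likewise (0.15, and 0.12 each) and with at least 10 counts in every sample (0.015). Leaving out 1 sample at a time gave -0.011 to 0.13 for *CASP8*, -0.036 to 0.033 for *APAF1* and -0.28 to 0.058 for *CARD16*. Over all genes, limma on TPM called 2698 (pseudocount 1), 2694 (0.1) and 2635 (no filter) lower, in place of 4222, with 265, 416 and 268 past 2-fold in place of 665. The filter of at least 10 counts left 740 genes higher past 2-fold in place of 1152, since fewer genes were tested. Leaving out 1 sample gave 0 to 1 pathway genes lower past 2-fold. Apart from these constructions, the cause was not tested.

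The replicate numbers did not pair the samples (correlations of same-numbered deviations 0.0122, 0.0266 and -0.0677). With the replicate block, 4223 genes were higher and 4175 lower, and 1 member was higher and 2 lower. At 170 counts or fewer, the interval of *CASP6* was the widest.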

Other observations

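Dividing counts by TPM gives a relative effective length of each gene in each sample (1 is the sample median), which moves when the transcripts that the counting assigned to a gene become longer or shorter. This was examined after seeing the data. *CFLAR* was at 1.49 to 1.58 in Ctrl and 2.12 to 2.21 in WNK463, a change of 39.4% (exact permutation p = 0.1, the smallest possible with 3 against 3). Its log2 fold change was 0.85 in counts and 0.53 in limma on log2(TPM + 1). A shift of at least 20% with groups that did not overlap was seen in 1.52% of the 7978 genes above 200 counts in every sample, in none of the 7 members above that limit and in 1 of 51 list and marker genes, *CFLAR*. For *CASP4* the values were 0.461 in Ctrl and 0.456 in WNK463. Which *CFLAR* transcripts were involved cannot be read from values per gene.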
